A study of Mus musculus with 5 samples.

Results

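The GATA factors and their Fog cofactors were followed across 5 mouse cell lines measured on one-colour Agilent whole-genome arrays. The members were the 6 genes Gata1 to Gata6 and the 2 Fog genes, Zfpm1 (Fog1) and Zfpm2 (Fog2), taken as every non-control probe that carries one of these symbols in the array files or whose accession now has that symbol. This gave 14 probes, printed as 32 spots per array, of 41149 probes with a value on all arrays. The 2 hepatic progenitor cell (HPC) arrays came from the fetal liver lines HB1, from the strain C57BL6J, and HNG2, from STOCK Tg(Nanog-GFP, Puro)1 Yam mice, both established at E13.5. The 2 induced hepatic progenitor cell (iHPC) arrays came from the neural progenitor line NSBAg2 after infection with pMXs retroviruses that carried 9 (iHep-9F, here 9F) or 10 (iHep-10F, here 10F) transcription factors and no drug-selection marker. The single neural progenitor cell (NPC) array was NSBAg2 itself, derived from the embryonic stem cell line BAg73C2. NPC and iHPC therefore share a beta-geo knock-in allele at Afp, the alpha-fetoprotein gene. G418 was added to the iHPC 3 weeks after infection and kept for 1 week, so cells that transcribe Afp were selected. Which transcription factors were delivered is not given in the sources used here. Whether a probe reads retroviral transcripts, of a member or of another transcription factor gene named below, was not tested.

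GATA factors are zinc finger proteins that bind DNA at the core letters GATA. Gata1, Gata2 and Gata3 are best known from blood cells, with further roles of Gata2 and Gata3 in neurons and trophoblast, while Gata4, Gata5 and Gata6 act in the heart, gut and liver, where Gata4 and Gata6 are needed for early liver bud growth. Fog proteins do not bind DNA as GATA factors do: they dock on the N-terminal zinc finger of a GATA factor and bring the NuRD and CtBP corepressors to its target genes.

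The sequences just before the start site are shown for 3 members that differed most between arrays and have an entry in the RefSeq promoter table (assembly GRCm38.p6): Zfpm1, high in both HPC lines, Gata3, highest in NPC, and Gata5, above background in HNG2. Each is the 250 bases before the start, 5′ to 3′ on the strand of the gene, with CpG dinucleotides in capitals. They lie at chr8:122281891-122282140 (plus strand), chr2:9878601-9878850 (minus strand) and chr2:180334680-180334929 (minus strand). All 3 stretches lie inside the annotated span of their gene, which reaches further upstream, so the start used is not the outermost one.
Zfpm1: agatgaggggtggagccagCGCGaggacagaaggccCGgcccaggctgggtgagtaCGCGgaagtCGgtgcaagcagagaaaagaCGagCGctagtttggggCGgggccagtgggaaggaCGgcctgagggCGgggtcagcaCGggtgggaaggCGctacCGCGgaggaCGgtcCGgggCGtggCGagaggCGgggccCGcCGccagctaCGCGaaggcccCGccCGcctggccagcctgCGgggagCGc
Gata3: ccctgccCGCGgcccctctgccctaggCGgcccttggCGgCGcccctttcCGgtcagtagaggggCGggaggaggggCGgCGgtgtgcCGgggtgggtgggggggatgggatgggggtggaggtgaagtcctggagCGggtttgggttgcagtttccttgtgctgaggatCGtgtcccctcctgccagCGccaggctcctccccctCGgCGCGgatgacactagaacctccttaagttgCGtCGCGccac
Gata5: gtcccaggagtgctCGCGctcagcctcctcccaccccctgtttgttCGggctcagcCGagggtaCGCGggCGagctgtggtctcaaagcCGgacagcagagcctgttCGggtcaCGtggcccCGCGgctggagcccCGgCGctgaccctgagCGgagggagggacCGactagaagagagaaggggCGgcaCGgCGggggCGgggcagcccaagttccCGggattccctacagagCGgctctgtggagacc
The printed stretches hold 28 CpG in Zfpm1, 19 in Gata3 and 22 in Gata5. Over the whole window of 300 bases, which adds 50 after the start, Zfpm1 has 37 CpG, Gata5 26 and Gata3 22, against a median of 7 over 32544 windows of that length. The table holds 6 windows for 5 members (Gata1, Gata2 with 2 starts, Gata3, Gata5 and Zfpm1). These were searched on both strands for AGATAA or AGATAG and likewise for the variants TGATAA or TGATAG, with overlapping matches counted separately. At least 1 match stood in 1 of the 6 member windows, TGATAG at position 37 after the Gata3 start, and in 29.6% of all windows. Gata4, Gata6 and Zfpm2 are named only.

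Levels below are log2 processed signals relative to the 75th percentile of the same array, so 0 is a fairly bright spot. They compare arrays within a probe, not probes with each other. A probe is called well above background on an array when most of its usable spots carry that flag of the scanner software, and dim otherwise. Between 58.9% and 65.6% of spots carried it on each array, none was saturated, and the lowest such signal stood between -6.62 and -5.19. The number of arrays limits the precision: the labels do not call arrays of a group repeat cultures, so each p-value reflects how far HB1 lies from HNG2 and 9F from 10F, and NPC has no replicate. HB1, HNG2 and the other 3 arrays were scanned on 3 separate days, so scan day and the HPC group cannot be told apart. All 10 hepatic progenitor markers, among them Afp, Alb and Krt19, were well above background on the HPC and iHPC arrays and 4 of 10 in NPC. Afp is no independent marker in iHPC, because these cells were selected for transcribing it. Of 10 neural progenitor markers, 8 were so in NPC, 7 on each iHPC array, 6 in HB1 and 7 in HNG2. Olig2 and Gfap were dim on all arrays, and Sox2 was dim in both HPC lines only. Nes was higher in iHPC (2.66 and 2.87) than in NPC (1.18), while Sox2 was lower (-3.57 and -4.41 against 0.86). The median over the 10 neural markers was -1.05 in NPC, -3.31 in 9F and -3.63 in 10F.

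Of the 8 genes, 6 were tested. Each was represented by its brightest probe, which was well above background on all 5 arrays, in 1 limma fit over 19308 genes. Gata1 and Gata5 did not pass the filter on dim probes, which asks for every array of at least 1 group. Between iHPC and HPC, Gata6, Zfpm1 and Zfpm2 were called, all lower in iHPC (3 of 6), where 5.43% of all genes were called, 3.55% higher and 1.88% lower. Between HPC and NPC, Gata6 and Zfpm1 were called, both higher in HPC (2 of 6), where 15.7% of all genes were called, 6.68% higher and 8.98% lower. Between iHPC and NPC no member was called by limma (0 of 6, with 2 at an unadjusted p under 0.05), where 5.65% of all genes were called, 2.8% higher and 2.85% lower. The HPC and iHPC comparisons with NPC share the NPC array, and the comparisons of iHPC share the iHPC arrays.

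**Figure D1:**
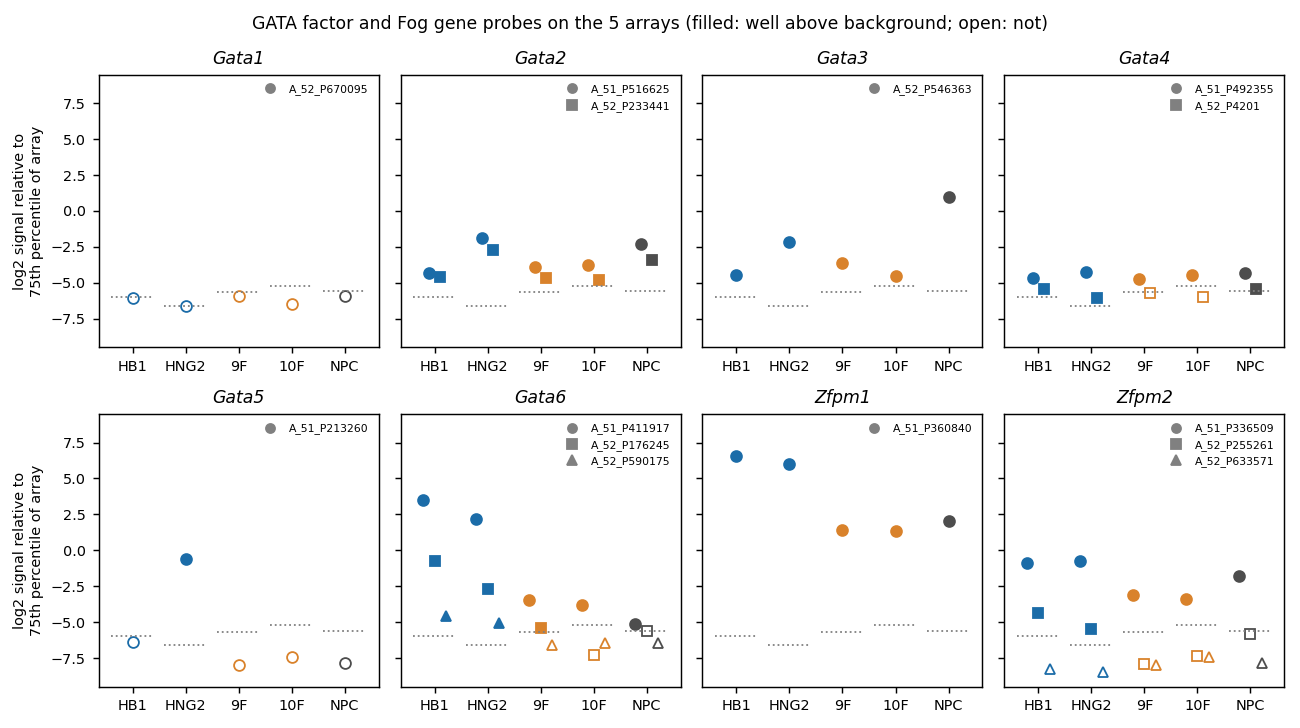
Log2 signal relative to the 75th percentile of the array (vertical axis) of all 14 member probes on the 5 arrays (horizontal axis); filled symbols are well above background, open symbols are not, symbol shape gives the probe, and dotted lines mark the lowest signal well above background on that array. Zfpm1 and Gata6 are high in HB1 and HNG2, Gata3 is high in NPC, and Gata5 is filled in HNG2 only.

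Gata6, an endoderm and heart factor, was the member with the widest range. Its brightest probe, A_51_P411917 (mm7 chr18:11291591-11291649), read 3.48 in HB1, 2.21 in HNG2, -3.46 in 9F, -3.78 in 10F and -5.11 in NPC. In signal units these were 12013 and 3963 in the HPC lines, 53.8 and 49.4 in the iHPC and 17.5 in NPC. The HPC lines were far above the other arrays and no groups overlapped. The HPC mean of 2.85 ± 0.90 (SD, n = 2) exceeded NPC by 7.96 on the log2 scale, a 249-fold difference (SE 0.64, 95% interval 6.12 to 9.79, limma adjusted p = 0.0142). The iHPC mean of -3.62 ± 0.23 (SD, n = 2) differed from HPC by -6.47 log2 units, 88.4-fold lower (SE 0.52, limma adjusted p = 0.0244). NPC stood close to the lowest signal well above background on its array (-5.59), and the sizes changed with the processing. With normexp background correction, HPC minus NPC was 5.85 and iHPC minus HPC -5.42. For the mean of all Gata6 probes they were 4.51 and -4.28. They were larger with median centring (8.24 and -6.71) and with quantile normalization (8.05 and -6.50). The iHPC mean exceeded NPC by 1.49 (95% interval -0.34 to 3.33), which did not pass (limma adjusted p = 0.268). The order was therefore HPC, iHPC, NPC, with iHPC and NPC not separated.

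Gata6 has 2 more probes, which lie upstream in the gene. Probe A_52_P176245, 20528 bases before the first, read -0.72 in HB1, -2.68 in HNG2, -5.44 in 9F, -7.32 in 10F and -5.62 in NPC. Here both HPC lines were again highest, but 10F and NPC were not well above background and give no order. Tested as its own feature among 27940 probes, it was not called between iHPC and HPC (difference -4.68, limma adjusted p = 0.0953) or between HPC and NPC (HPC at least 14.8-fold above NPC, adjusted p = 0.117). Of all probes tested, 4.96% and 15.2% were called in these comparisons, and 5.18% between iHPC and NPC. Probe A_52_P590175, a further 9977 bases upstream, read -4.54 and -5.07 in the HPC lines and between -6.58 and -6.42 on the other 3 arrays, where it was not well above background. Its HPC signal was at least 1.54-fold above iHPC (limma adjusted p = 0.0634) and at least 1.73-fold above NPC (adjusted p = 0.0546). All 3 probes were thus highest in HB1, next in HNG2 and lower on every iHPC and NPC array. On the 2 upstream probes NPC was not well above background, so they give no order of iHPC and NPC. Whether the probes read different transcripts was not tested.

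Zfpm1, the Fog cofactor known from red cell and megakaryocyte formation with Gata1, was the other gene called in both comparisons of HPC. Its only probe, A_51_P360840 (mm7 chr8:120979158-120979217), read 6.55 in HB1, 5.98 in HNG2, 1.43 in 9F, 1.34 in 10F and 2.03 in NPC. The signals were 100837 and 53833 in the HPC lines against 1588, 1724 and 2478 in 9F, 10F and NPC. The groups did not overlap, and the arrays of each pair lay within 0.58 of each other. HPC (mean 6.26 ± 0.41, SD, n = 2) exceeded NPC by 4.23, 18.8-fold (SE 0.35, 95% interval 3.23 to 5.23, limma adjusted p = 0.0144). The iHPC mean of 1.39 ± 0.06 (SD, n = 2) differed from HPC by -4.88 log2 units, 29.4-fold lower (SE 0.28, 95% interval -5.70 to -4.06, limma adjusted p = 0.0192). Between iHPC and NPC the difference was -0.65 (95% interval -1.65 to 0.35, limma adjusted p = 0.358). Zfpm1 was well above background on all 5 arrays, NPC included, and the order was HPC, NPC, iHPC with NPC and iHPC not separated. Gata1, its best known partner, was not well above background on any array.

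Zfpm2, the Fog cofactor that partners Gata4 in heart and gonad, moved in the same direction between iHPC and HPC by a smaller amount. Probe A_51_P336509 (mm7 chr15:41102173-41102232) read -0.90 in HB1, -0.72 in HNG2, -3.12 in 9F, -3.37 in 10F and -1.82 in NPC. NPC lay between both pairs and no groups overlapped. The iHPC mean differed from HPC by -2.44 log2 units, 5.42-fold lower (SE 0.22, 95% interval -3.06 to -1.82, limma adjusted p = 0.0277). HPC minus NPC was 1.01 (95% interval 0.25 to 1.77, limma adjusted p = 0.0859) and iHPC minus NPC was -1.42 (95% interval -2.19 to -0.66, adjusted p = 0.0762), neither of which passed. Of its other probes, A_52_P255261 read -4.37 and -5.49 in the HPC lines and was not well above background on the other arrays (at least 1.42-fold above iHPC, limma adjusted p = 0.073), and A_52_P633571 was not well above background anywhere. These probes match other transcripts in the files and lie upstream, A_52_P633571 by 233850 bases from the first probe and A_52_P255261 by a further 97830.

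For these 3 genes the direction between iHPC and HPC was the same under every alternative tried on the brightest probe. Their calls, like those of all genes, rested on both iHPC arrays. Without 9F or without 10F, the spread of the HPC pair stands in for that of the lone iHPC array. The fit then lost its calls over all genes, so the loss for these 3 is not particular to them. In these bulk RNA samples, fewer cells of a kind and less RNA per cell cannot be told apart.

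**Figure D2:**
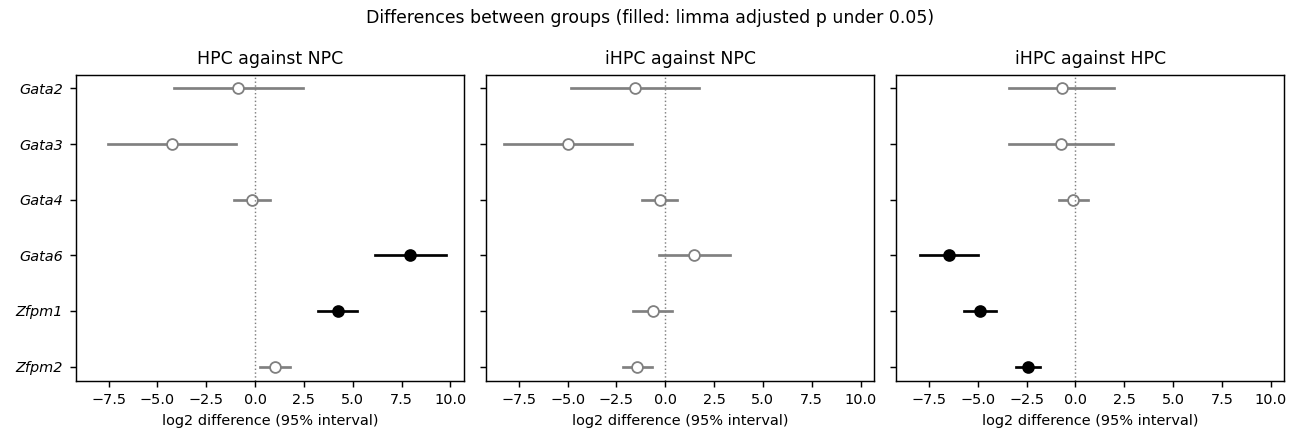
Log2 differences between group means (horizontal axis) with their 95% intervals for the 6 tested members (vertical axis) in the 3 comparisons; filled points have a limma adjusted p under 0.05. Gata6 and Zfpm1 lie above 0 for HPC against NPC, and Gata6, Zfpm1 and Zfpm2 lie below 0 for iHPC against HPC.

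Gata3, a factor of T cells, trophoblast and some neurons, had its highest level in the neural line. Probe A_52_P546363 (mm7 chr2:9796514-9796573) read 0.95 in NPC, -2.17 in HNG2, -3.59 in 9F, -4.44 in HB1 and -4.53 in 10F. Its signal was 1165 in NPC and 190 in HNG2, and between 29.5 and 49.5 on the other 3 arrays. NPC stood above all other arrays, while HPC and iHPC overlapped. iHPC minus NPC was -5.004 log2 units, a 32.1-fold difference (SE 1.14, 95% interval -8.28 to -1.73), and HPC minus NPC was -4.25, 19.0-fold (95% interval -7.53 to -0.97). Neither passed over all genes (limma adjusted p = 0.109 and 0.0893, unadjusted p = 0.0143 and 0.0236). The spread that sets these errors comes mostly from the HPC pair, whose lines differed by 2.27. With only iHPC and NPC in the fit, where the 2 iHPC arrays alone give the spread, the limma adjusted p for Gata3 was 0.0134. That setting called 35% of all genes, against 5.65% in the main fit.

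Gata2, a factor of blood stem cells, endothelium and neurons, was highest in HNG2 and NPC. Probe A_51_P516625 (mm7 chr6:88281934-88281993) read -1.89 in HNG2, -2.27 in NPC, -3.73 in 10F, -3.92 in 9F and -4.35 in HB1. Probe A_52_P233441, 473 bases upstream, gave -2.72, -3.40, -4.80, -4.67 and -4.58 for the same arrays. On both probes HNG2 was highest and NPC second, with the iHPC arrays and HB1 at the low end. The HPC pair thus spanned the whole range on the first probe, and no difference passed: iHPC minus NPC was -1.56 (95% interval -4.85 to 1.73, limma adjusted p = 0.493), iHPC minus HPC -0.71 (adjusted p = 0.659) and HPC minus NPC -0.85 (adjusted p = 0.632). With only iHPC and NPC in the fit, Gata2 was called (limma adjusted p = 0.0151), but so were 35% of all genes, against 5.65% in the main fit. Without HB1, iHPC minus HPC was -1.94, and without HNG2, HPC minus NPC was -2.08.

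Gata4, which acts with Gata6 in the early liver bud and in the heart, was low and nearly level on all arrays. Probe A_51_P492355 read -4.66 in HB1, -4.26 in HNG2, -4.72 in 9F, -4.43 in 10F and -4.29 in NPC, a signal well above background throughout. All differences between groups were within 0.29 log2 units: iHPC minus NPC was -0.29 (95% interval -1.20 to 0.63), iHPC minus HPC -0.12 (-0.86 to 0.62) and HPC minus NPC -0.17 (-1.08 to 0.74), with limma adjusted p-values of 0.658, 0.797 and 0.737. Its other probe, A_52_P4201, is printed 10 times and read -5.44, -6.03, -5.71, -5.98 and -5.41 on the same arrays, with an SD over spots of 0.15 to 0.30. It was well above background in HPC and NPC, but in 2 of 9 usable spots in 9F and 0 of 10 in 10F. No group stood apart on either probe beyond the spread of the arrays.

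Gata1, the red cell and megakaryocyte factor, was not well above background on any array. Its probe A_52_P670095 (mm7 chrX:6392873-6392932), also printed 10 times, read -6.07 in HB1, -6.61 in HNG2, -5.93 in 9F, -6.48 in 10F and -5.93 in NPC. Between 0 and 5 of its 10 spots per array carried the flag: 5 in HB1, 3 in HNG2, 2 in 9F and 0 in 10F and NPC. These signals give only an upper bound on Gata1 and no order of the lines.

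Gata5, a factor of heart, gut and liver endoderm, was measured in 1 line. Probe A_51_P213260 (mm7 chr2:180826431-180826490) read -0.62 in HNG2, a signal of 555, and -6.41 in HB1, -7.95 in 9F, -7.45 in 10F and -7.84 in NPC, where it was not well above background. HNG2 was at least 41.3-fold above HB1, the other fetal liver line. Since only 1 array of the HPC pair detected it, Gata5 did not pass the filter. With no filter on dim probes it was not called in any comparison (limma adjusted p = 0.269 for iHPC against HPC, 0.332 for HPC against NPC and 0.987 for iHPC against NPC).

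The HPC lines differed from each other at Gata2, Gata3 and Gata5, all higher in HNG2, and to a lesser degree at Gata6, higher in HB1. HNG2 minus HB1 was 2.46 for Gata2 (1.85 on its second probe) and 2.27 for Gata3, and Gata5 was at least 41.3-fold higher, so each differed more than 4-fold on its brightest probe. For Gata6 it was -1.27, -1.97 and -0.53 on the 3 probes. Among the genes tested, 8.6% differed at least 4-fold between these lines and 3.94% were at least 4-fold higher in HNG2, and with 1 array per line there is no test. In the iHPC pair, 10F minus 9F lay between -0.94 and 0.29 on the brightest probes of the 6 tested genes, the largest being Gata3, and 0.73% of genes differed at least 4-fold. On the Gata6 probe A_52_P176245, 10F lay below 9F and was not well above background.

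Markers of other cell types also differed between the HPC lines. Of 11 blood markers, 5 were well above background in HB1 and 7 in HNG2, with summed signals of 0.678 and 1.64 times the 75th percentile, and Ptprc, Alas2 and Spi1 were dim in both. Cd34, a marker shared by blood stem cells and endothelium, made up most of this sum in HNG2: it read -8.15 in HB1, where it was dim, and 0.23 in HNG2. Of 7 cardiac markers, 4 and 5 were so (summed signals 1.01 and 9.75), Tnnt2, the cardiac troponin T gene, being at -0.97 in HB1 and 3.26 in HNG2. Myl7 was dim in HB1 (-6.12) and well above background in HNG2 (-3.98). Actc1 (-1.30 and -3.44), Nkx2-5 (-4.99 and -6.12) and Nppa (-4.61 and -5.97) were lower in HNG2, the list median went from -4.99 to -5.97, and Myh6 and Ryr2 were dim in both. Of 10 mesothelial and hepatic stellate markers, 5 and 7 were so (summed signals 121 and 126). Msln (6.71 and 6.72) and Acta2 (3.80 and 4.05) made up most of both sums. Wt1 read -6.77 and -3.20 and Pdgfrb -7.17 and -0.74, while Upk3b (-5.02 and -6.90) and Lrat (-5.30 and -8.59) were well above background in HB1 only. Of 9 endothelial markers, 4 and 2 were so (0.213 and 0.114), and Pecam1, Cdh5, Tie1, Emcn and Lyve1 were in neither. The part of these cell types in the differences of Gata2, Gata3 and Gata5 was not tested.

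**Figure D3:**
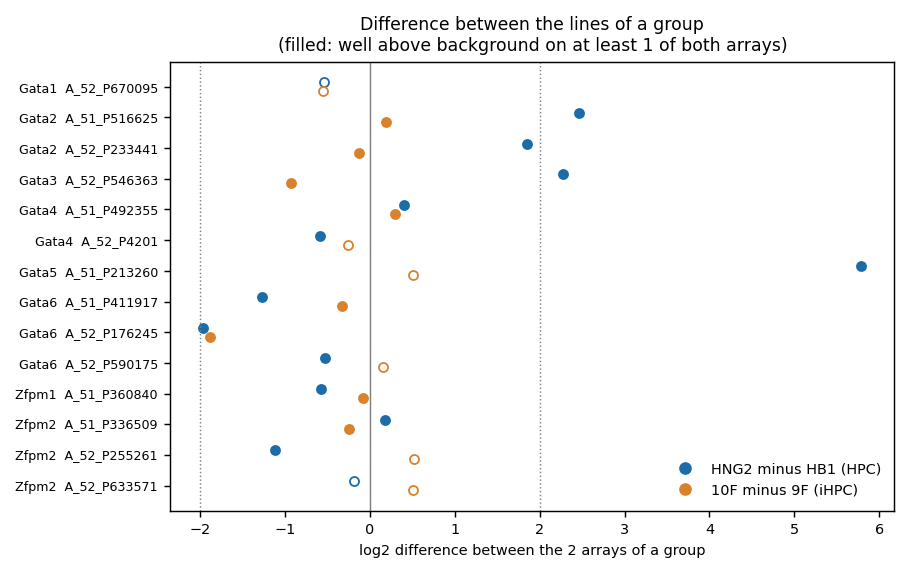
Log2 difference between both arrays of a group (horizontal axis) for each of the 14 member probes (vertical axis), HNG2 minus HB1 in blue and 10F minus 9F in orange; dotted lines mark a 4-fold difference and open points were not well above background on either array. Gata2 and Gata3 lie to the right for the HPC lines at 2.46 and 2.27, and Gata5 further right, where the point is drawn from the HB1 signal as it stands and only the bound of at least 41.3-fold holds.

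Genes that work with the members were read from the same fit. For each list below, the shares of all genes called were 15.7% for HPC against NPC, 5.65% for iHPC against NPC and 5.43% for iHPC against HPC. Of 14 endoderm and liver transcription factors known to act with Gata4 and Gata6, all were tested. Against NPC, 6 rose and 1 fell in HPC, with a median log2 difference of 4.08 over the list and -0.03 over all genes. Hnf4a and Prox1, liver regulators, rose at least 239-fold and at least 21.8-fold, Onecut1 rose by 7.40 (limma adjusted p = 0.00982), and the endoderm factor Sox7 was at least 6.91-fold lower. In iHPC against NPC, 5 rose and 2 fell (median 1.36, against 0.03): Hnf4a was at least 135-fold higher, Hhex rose by 3.01 and Onecut1 by 2.97, while Foxa2, the pioneer factor of the foregut, fell by 3.13 (limma adjusted p = 0.035) and Sox7 was at least 3.76-fold lower. In iHPC against HPC, 0 rose and 7 fell (median -2.95, against 0.05), with differences of -4.88 for Foxa2, -4.42 for Onecut1 and -3.57 for Onecut2, and Foxa3 at least 13.3-fold lower. Medians use signals as they stand, dim ones included. Whether a retrovirus carried any of these factors, so that its probe read the delivered transcript in iHPC, was not tested. Without 9F or without 10F the fit lost its calls over all genes, so that setting cannot set this list or those below apart from other genes.

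Foxa2 and Onecut1 show 2 patterns inside this list. Foxa2 read 4.91 and 4.56 in HPC, 0.07 and -0.36 in iHPC and 2.98 in NPC, so the iHPC stood below both other groups. Onecut1 read 2.71 and 2.90 in HPC, -1.75 and -1.48 in iHPC and -4.59 in NPC, with iHPC between the others. The arrays of the brightest Gata6 probe had this group order too, but its iHPC and NPC were not separated by the fit. For neither Foxa2 nor Onecut1 did the groups overlap.

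Of 17 endoderm matrix and intestinal genes that are targets of Gata4, Gata5 or Gata6, 14 were tested. In HPC against NPC 2 rose and 0 fell, where 15.7% of all genes were called. They were Cdx2, the intestinal homeobox gene, at least 1117-fold, and Fabp2, the intestinal fatty acid binding protein gene, by 5.13 (limma adjusted p = 0.0134). In iHPC against NPC only Cdx2 was called, at least 32.7-fold higher, where 5.65% of all genes were called. These counts are near the shares of all genes. In iHPC against HPC 0 rose and 2 fell, Fabp2 with a difference of -5.51 (limma adjusted p = 0.019) and Cdx2 with -5.09 (adjusted p = 0.0193). Fabp2 read 0.71 and 0.07 in HPC and between -5.26 and -4.74 elsewhere, so its 3 lower arrays were close together. The list medians were 1.26, 0.17 and -0.35 in the order of these comparisons. Of 7 intestinal markers, between 4 and 6 were well above background on the HPC and iHPC arrays and 3 in NPC, with summed signals of 37.0 to 104 in HPC, 19.7 to 21.6 in iHPC and 0.231 in NPC, and Cdx1 was not well above background on any array. The part of intestinal-type cells in these values was not tested.

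The NuRD and CtBP corepressor list was read next, without the NuRD subunits that carry a GATA-type zinc finger (Mta and Gatad2 genes), which stand in the list after it. Of its 11 genes, limma called 0 in every comparison, with 2 at an unadjusted p under 0.05 for HPC against NPC, 1 for iHPC against NPC and 4 for iHPC against HPC. Their medians were 0.16, 0.14 and 0.12. Ctbp1, for example, read 3.92 and 4.02 in HPC, 3.16 and 3.21 in iHPC and 3.26 in NPC (iHPC minus HPC -0.78, limma adjusted p = 0.109), and Hdac1 read between 3.04 and 3.75 on all arrays. The largest difference of this list between iHPC and HPC was that of Hdac2, which did not pass. Hdac2 was 2.77-fold lower in iHPC (difference -1.47, limma adjusted p = 0.0565), and the groups did not overlap. These genes were chosen as examples after their values were seen.

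Of 9 genes of other GATA-type zinc finger proteins, 8 were tested. Trps1, a repressor that binds GATA sites, fell by 4.25 in iHPC against NPC (19.0-fold, limma adjusted p = 0.0439) and fell by 6.67 in HPC against NPC (102-fold, adjusted p = 0.0144). It read 3.36 in NPC, -0.91 and -0.86 in iHPC and -3.85 and -2.77 in HPC. This order was opposite to that of the brightest Gata6 probe, on which iHPC and NPC were not separated. Mta3, a NuRD subunit gene, fell by 2.09 in HPC against NPC (limma adjusted p = 0.0407). No other gene of this list was called, and in iHPC against HPC limma called 0 of 8, with 1 at an unadjusted p under 0.05.

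Partners and targets outside endoderm were read in the same way, and of all genes 15.7% were called for HPC against NPC, 5.65% for iHPC against NPC and 5.43% for iHPC against HPC. Of 21 haematopoietic partners and targets of Gata1 and Gata2, 11 were tested. Epor, the erythropoietin receptor gene, fell by 1.98 in HPC against NPC (limma adjusted p = 0.0357), and Pf4, a platelet chemokine gene, was at least 2.78-fold higher in iHPC than in HPC (adjusted p = 0.0326). Limma called 0 of this list for iHPC against NPC, with 2 at an unadjusted p under 0.05. Of 16 cardiac and gonadal partners and targets of Gata4, 10 were tested. In HPC against NPC 0 rose and 3 fell, Mef2c at least 231-fold, Isl1 at least 22.6-fold and the nuclear receptor gene Nr2f2 with a difference of -1.83, and Nr2f2 also fell by 2.00 in iHPC against NPC. Limma called 0 of them between iHPC and HPC, with 3 at an unadjusted p under 0.05.

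Of 14 neuronal and trophoblast partners of Gata2 and Gata3, 8 were tested. Tfap2a, which works with Gata3 in trophoblast, fell by 5.71 in HPC against NPC (limma adjusted p = 0.0255). It read 1.06 in NPC, -1.01 and -0.84 in iHPC and -3.91 and -5.40 in HPC, so NPC was highest as for Gata3, but iHPC and HPC did not overlap. Tead4, a trophoblast regulator, rose by 1.57 in HPC and by 1.96 in iHPC against NPC, and Eomes rose at least 5.08-fold in HPC against NPC. Limma called 0 of this list between iHPC and HPC, with 3 at an unadjusted p under 0.05.

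**Figure D4:**
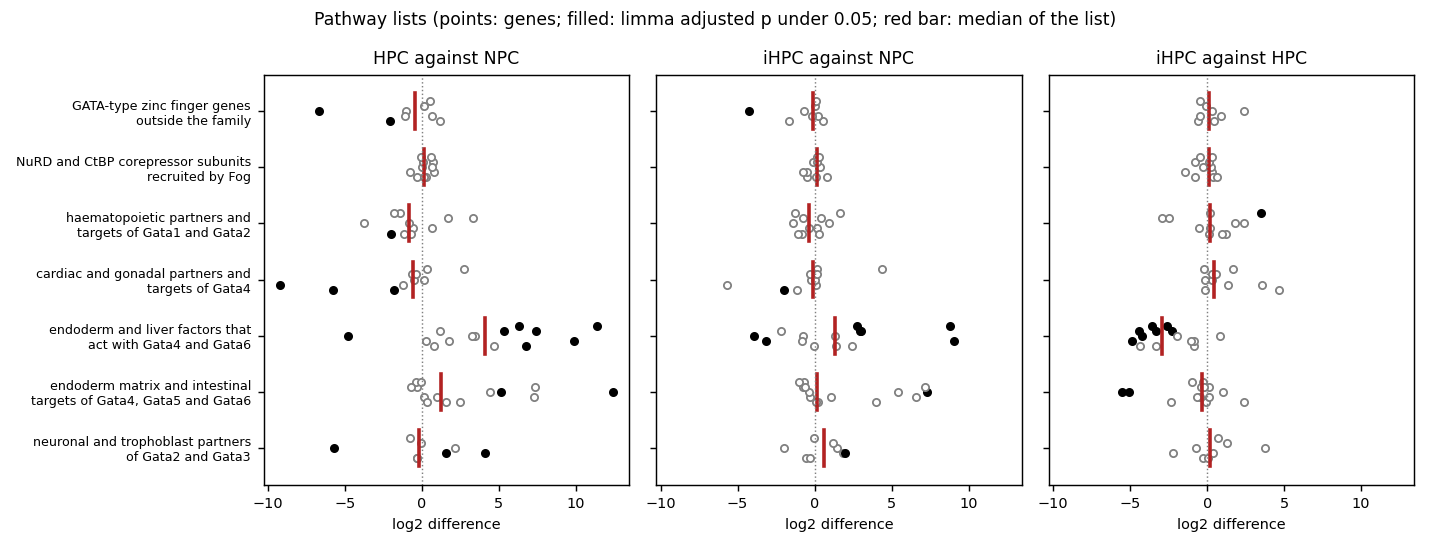
Log2 differences between group means (horizontal axis) of the genes in 7 pathway lists (rows) in the 3 comparisons; points are genes, filled where the limma adjusted p is under 0.05, and red bars are list medians. The endoderm and liver factors have medians of 4.08 and 1.36 against NPC and -2.95 for iHPC against HPC.

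For the 6 members that were above background somewhere and spanned at least 2 log2 units, the 3 tested genes of nearest profile were found by the Euclidean distance between profiles centred over the 5 arrays. For Gata6 they were Hprt (distance 0.81), Arhgef16 (1.24) and Shtn1 (1.38). Hprt, a purine salvage gene, read 6.69 and 5.79 in HPC, -0.55 and 0.11 in iHPC and -1.33 in NPC. For Zfpm1 they were Cdcp1 (0.78), 9330159F19Rik (0.84) and Pilra (0.85), and for Zfpm2 Prag1 (0.38), Loxl2 (0.40) and Mmp28 (0.41). Prag1 read 0.12 and 0.58 in HPC, -1.73 and -1.91 in iHPC and -0.71 in NPC.

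For Gata3 the nearest were Tceal6 (0.71), Cd248 (0.84) and Dlx1 (0.93), the last a homeobox gene of forebrain interneurons that read 1.09 in NPC and between -3.48 and -1.91 elsewhere. For Gata2 they were Wnt9a (0.24), Zfp105 (0.25) and Samd12 (0.25), and for Gata5 Trpa1 (0.75), Eda2r (1.13) and Tmem35a (1.15). Trpa1, a sensory ion channel gene, read -0.53 in HNG2 and between -5.98 and -4.50 on the other 4 arrays. These distances rest on 5 arrays that share scaling and describe likeness of profile only.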

How the data were processed

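The 5 arrays each had 0.25 µg of total RNA labelled with Cy3, per the labels' protocols. Per the file headers, the deposited values are spot intensity, background-subtracted and detrended by the authors with Agilent Feature Extraction 10.7.3.1, and they are not normalized between arrays. Here log2 of the processed intensity was taken and the 75th percentile of each array (590 to 1074 signal units) subtracted. Control and outlier-flagged spots were dropped and spots of a probe averaged. Probes were named through RefSeq accessions (22940 probes), then symbols (6658), and 11551 kept the file's name; probe positions are mm7, per the file headers. A probe was kept if all arrays of 1 group or more read it well above background, and the probe with the highest mean stood for its gene. A gene dim on all arrays of a group has only a bound, "at least": the bright mean against the dim mean, with each dim array at the probe's own signal or, if higher, at the dimmest signal that array measured well above background.

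Limma 3.58.1 (R 4.3.3; lmFit and eBayes, two-sided, Benjamini-Hochberg over 19308 genes, called at adjusted p under 0.05) was fitted to all 5 arrays in 3 groups, with 2 residual degrees of freedom. The fit assumes 1 spread, whereas the SD of a gene had a median of 0.374 for HPC and 0.105 for iHPC. An exact permutation test of 2 arrays against 2 cannot go below p = 0.333. The fit was also run on simulated data with known changes, where the only check was that mean estimates lay near them. The simulation gave all groups the same spread for a gene, so it cannot show how the unequal spreads affect the calls. The members, gene lists and tests were chosen with earlier results of these data known. All members were named, the called genes of each list (at most 4 per direction), and the 3 nearest profiles; some named genes are not reported here. The study also cites stem cell arrays and the neural line NSEB5-2C, not used here. Plots were made in matplotlib 3.10.9.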

Additional observations from a re-analysis of the deposited data

Results flagged for a closer look

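Both Zfpm1 arrays of HPC read above NPC and both of iHPC below it, and the tested difference between the groups was -4.88 log2 units (iHPC minus HPC, limma adjusted p = 0.0192, lower in both iHPC arrays), while iHPC against NPC did not pass (adjusted p = 0.358). Zfpm2 had the same order of arrays, with a difference of -2.44 (limma adjusted p = 0.0277, lower in both iHPC arrays), while neither group passed against NPC (adjusted p = 0.0859 for HPC and 0.0762 for iHPC). Gata5 was left out by the filter on dim probes, yet its probe read -0.62 in HNG2, well above background there and not in NPC.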

How the results depend on the processing

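Gata6, Zfpm1 and Zfpm2 kept their direction against HPC in iHPC, and Gata6 and Zfpm1 against NPC in HPC, under all alternatives run. Of 273 alternative values for single members, 216 kept direction and side of the threshold, 23 lost and 23 gained a call and 11 reversed. Members called for iHPC against NPC numbered 4 with scan day as a fixed block and 4 with only the groups compared (Gata2, Gata3, Gata6 and Zfpm2 in both). In both settings 35% of all genes were called. The iHPC and NPC arrays share a scan day, so the block in effect takes out the HPC arrays. It adjusts nothing between iHPC and NPC. For iHPC against HPC they numbered 0 with the iHPC arrays as separate groups and 0 to 4 with 1 array left out. For HPC against NPC they numbered 0 with the iHPC arrays as separate groups, 0 with only the groups compared and 0 to 5 with 1 array left out. Zfpm2 lost its call with no filter on dim probes (limma adjusted p = 0.0523), and normexp background correction called Gata3 for HPC against NPC (adjusted p = 0.0314).

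Genes called overall were 1090 for iHPC against NPC: 305 with no filter, 492 with probes well above background on all arrays, 0 with iHPC arrays separate (2570 at an unadjusted p under 0.05), 6754 with the scan-day block, 6755 with only the groups compared, and 0 to 6772 with 1 array left out. For iHPC against HPC they were 1048: 2121 with normexp, 460 with no filter, 617 with probes well above background on all arrays, 0 with iHPC arrays separate (2665 unadjusted), and 0 to 6987 with 1 array left out. For HPC against NPC they were 3024: 4747 with normexp, 1643 with no filter, 0 with iHPC arrays separate (3889 unadjusted), 0 with only the groups compared (3888 unadjusted), and 0 to 9748 with 1 array left out. The iHPC pair has the smaller spread, so settings that drop it from the error lose calls and settings that keep only it gain them.

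For Gata6, iHPC against NPC was -0.76 and -0.021 on probes A_52_P176245 and A_52_P590175, where NPC and at least 1 iHPC array were not well above background, so these signs carry no order. For Gata4, iHPC against HPC was 0.27 with normexp and -0.32 to 0.078 with 1 array left out (positive without HNG2 or without 9F), and HPC against NPC was 0.092 with quantile normalization, 0.12 with median centring and -0.36 to 0.031 with 1 array left out (positive without HB1). With 1 array left out, iHPC against HPC ran from -1.94 to 0.52 for Gata2 and from -1.89 to 0.38 for Gata3, both positive without HNG2, and HPC against NPC ran from -2.08 to 0.38 for Gata2, positive without HB1. The cause was not tested.

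Median centring moved the median difference of all genes to 0.26 for HPC against NPC and to -0.19 for iHPC against HPC. Calls split as 1290 higher and 1734 lower for HPC against NPC (1761 and 1496 with median centring; 1198 and 1147 with probes well above background on all arrays), and as 685 and 363 for iHPC against HPC (690 and 626 with median centring, 723 and 560 with quantile normalization). No paired analysis was possible because the labels give the groups no shared replicate numbers. Scan day as a random block could not be fitted, and as a fixed block it could be estimated only for iHPC against NPC. Testing each probe as its own feature was added after the data were seen. Where 1 array of a pair was left out, the other was assumed to vary like the remaining pair.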

Other observations

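A few haematopoietic genes and blood markers stood apart in 1 line or group, and they were chosen here after their values were seen. Nfe2, a factor of red cells and platelets, read -0.71 in HB1 and between -5.57 and -4.48 on the other 4 arrays. Kit, the stem cell factor receptor gene, read -2.36 in HB1, -6.09 in HNG2 and between -7.76 and -6.55 elsewhere, so both were highest in the HPC line in which Gata2 was lowest. Among the blood markers, Ptprc, the pan-leukocyte antigen gene, read -3.29 in 9F and -2.84 in 10F and was not well above background in HPC or NPC, while Spi1 and Alas2 were not well above background on any array.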
